A study of Arabidopsis thaliana with 24 samples.

Results

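Indole glucosinolates are tryptophan-derived, sulfur-containing defence compounds of Arabidopsis thaliana and its relatives, and 8 genes of their pathway were followed here across roots and shoots after salicylhydroxamic acid (SHAM). The genes were taken by locus. They comprise the enzymes CYP83B1 (AT4G31500), SUR1 (AT2G20610), UGT74B1 (AT1G24100), SOT16 (AT1G74100) and CYP81F2 (AT5G57220), and the regulators MYB34 (AT5G60890), MYB51 (AT1G18570) and MYB122 (AT1G74080). Of these 8 loci, 7 have a row among the 16183 genes of the count table, and the transcript level of MYB122 was not analysed here. SHAM is best known as an inhibitor of the alternative oxidase of plant mitochondria, and it also inhibits lipoxygenases and other metalloenzymes.

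All plants were wild-type Columbia-0 seedlings, 7 d old, grown at 21 °C in 16 h of light and 8 h of dark with 1% sucrose. Whole seedlings stood in water for 1 h or in SHAM for 1, 2 or 3 h, roots were then parted from shoots, and each of the 8 groups has 3 replicates, 24 libraries in all. Each replicate pooled 30 to 50 seedlings, so single plants were not measured. The treatment label gives SHAM at 1 mM, while the protocol text also names 0.1 mM SHAM and 30% polyethylene glycol, an osmotic agent, so the dose and the presence of that agent could not be settled from the labels. Water was sampled only at 1 h, so each 2 h and 3 h difference from water also holds the added time in solution.

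In this pathway cytochromes P450 of the CYP79B type turn tryptophan into indole-3-acetaldoxime, which also feeds auxin and camalexin synthesis. CYP83B1 commits the oxime to glucosinolates, SUR1 cleaves the sulfur conjugate to a thiol, UGT74B1 adds glucose, and SOT16 adds sulfate to complete the core. CYP81F2 and its relatives then hydroxylate the indole ring. The R2R3-MYB factors MYB34, MYB51 and MYB122 activate the pathway in partly different organs, MYB34 being known chiefly from roots and MYB51 chiefly from shoots.

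Library totals ran from 862731 to 3622300 counts. In water, 8 of 8 shoot markers were higher in shoots and 8 of 8 root markers were higher in roots, as the organ labels require. The summed share of the 8 shoot markers was 5.11 to 10.3% of counts in shoots and 0.0174 to 0.12% in 11 root libraries, but 1.23% in root SHAM 1 h replicate 1. Mitochondrial genes made up 2.22% of root SHAM 1 h replicate 2 and 4.15 to 7.22% of the other roots. The summed share of the 8 root markers was 0.172 to 0.232% in water roots and 0.0585 to 0.104% in SHAM roots. Beside all root results below it therefore stands that 5, 6 and 4 of the 8 root markers were also lower at 1, 2 and 3 h, and the part of this in the results was not tested. In shoots, the summed share of the organelle genomes was 0.31 to 0.446% at SHAM 2 h and in SHAM 1 h replicate 3, against 1.3 to 1.65% in the other 8 libraries, and its part in the shoot results was not tested.

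A pair of root libraries went against their time labels. Over 10642 genes, with each gene's mean over the roots removed, SHAM 2 h replicate 3 correlated with SHAM 3 h replicates 2 and 3 at r = 0.659 and 0.68, but with its own group at 0.0407 and 0.0642. SHAM 3 h replicate 1 correlated with SHAM 2 h replicates 1 and 2 at r = 0.297 and 0.497, but with its own group at 0.0793 and -0.0361. These correlations are across genes of single libraries and serve as a description. Both libraries keep their labels below, and the members' root changes at 2 and 3 h against water are given with and without both.

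Transcript levels below are CPM, the counts of a gene scaled to the same total in every library, given as mean ± SD of 3 replicates. A change is the log2 fold change ± SE from edgeR's quasi-likelihood test after TMM scaling, fitted over all genes of an organ, and a gene is called higher or lower at a Benjamini-Hochberg adjusted p under 0.05. TMM corrects for differences in RNA composition, so a fold change can depart from the ratio of the CPM values. Of the 7 measured genes, 6 passed the filter on low counts in roots and 5 in shoots. Against water, the roots had 0 of 6 called at 1 h (12.2% of all genes tested were called), 3 of 6 at 2 h, all lower (14.0% of all genes, 5.40% lower), and 3 of 6 at 3 h, all lower (16.4%, 6.40% lower). Shoots had 1 of 5 called at 1 h, lower (16.8%, 7.49% lower), 1 of 5 at 2 h, lower (15.8%, 7.44% lower), and 3 of 5 at 3 h, all higher (9.00%, 6.31% higher). The median log2 fold change of the tested members was -1.61 in roots at 2 h and -1.37 at 3 h, against -0.08 and -0.07 over all genes, and 1.70 in shoots at 3 h against 0.00. For the root count of 0 at 1 h, 1 member had an unadjusted p under 0.05 and DESeq2 also called 0.

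**Figure D1:**
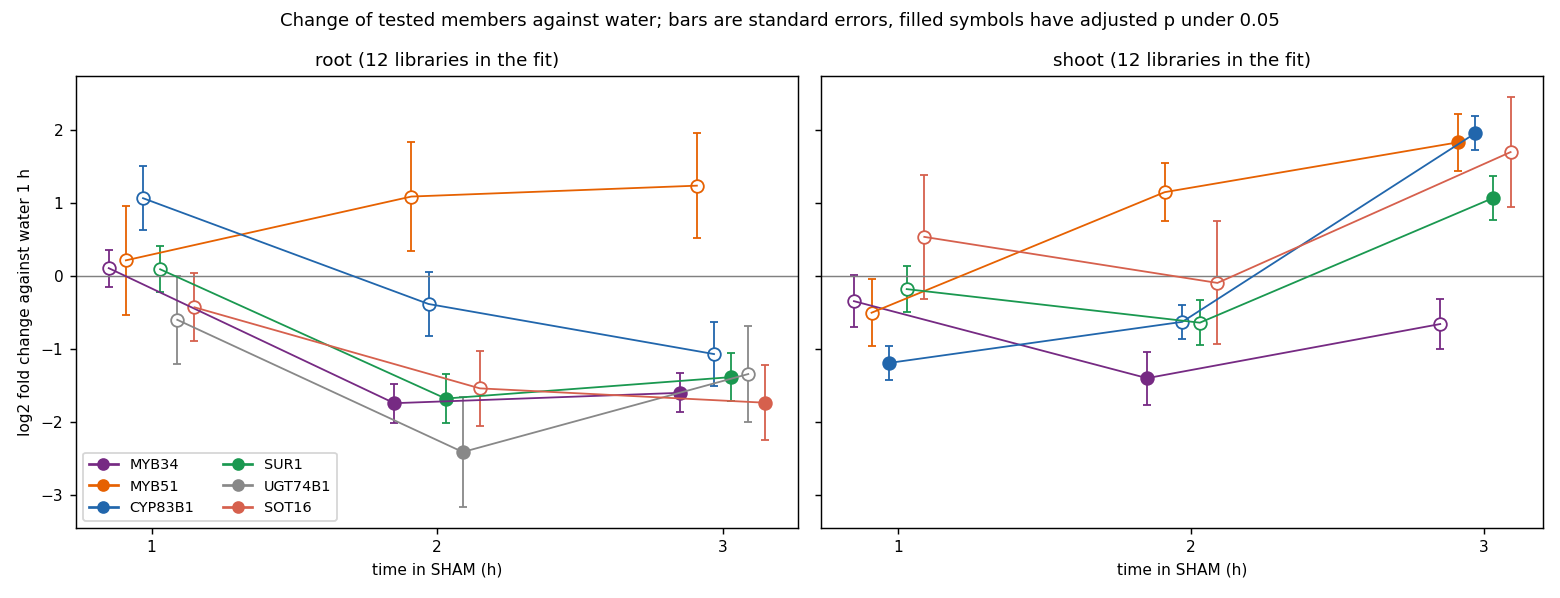
Log2 fold change against water 1 h (vertical axis) by hours in SHAM (horizontal axis) for the tested members in roots (left, 6 genes) and shoots (right, 5 genes), with standard errors as bars and filled symbols for an adjusted p under 0.05. In roots all symbols but MYB51 lie below 0 at 2 and 3 h, and in shoots all but MYB34 lie above 0 at 3 h.

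The stretches of 250 bases before the annotated transcript start are shown for 4 members, MYB34 and SUR1 because both fell in roots, CYP83B1 and MYB51 because with SUR1 they rose in shoots. They were read from the RefSeq genome TAIR10.1, on the strand of the gene. Capitals mark 3 motifs searched on both strands: the WRKY-binding W-box core TTGAC, the G-box CACGTG, bound by MYC-type factors among others, and the TGA element TGACG. CYP83B1 lies at chr4:15275405-15275654 on the minus strand, SUR1 at chr2:8880441-8880690 on the minus strand, MYB34 at chr5:24494041-24494290 on the plus strand, and MYB51 at chr1:6389149-6389398 on the plus strand.
MYB34: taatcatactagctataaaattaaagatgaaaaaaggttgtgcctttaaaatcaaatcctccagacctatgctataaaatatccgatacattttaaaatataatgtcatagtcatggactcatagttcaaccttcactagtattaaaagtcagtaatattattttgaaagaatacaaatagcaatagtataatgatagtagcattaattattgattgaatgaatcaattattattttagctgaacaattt
MYB51: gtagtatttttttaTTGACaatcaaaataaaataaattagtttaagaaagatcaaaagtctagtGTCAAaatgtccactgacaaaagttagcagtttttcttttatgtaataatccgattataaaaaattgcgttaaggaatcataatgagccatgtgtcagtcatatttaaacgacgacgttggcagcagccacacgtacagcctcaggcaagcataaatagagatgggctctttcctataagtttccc
CYP83B1: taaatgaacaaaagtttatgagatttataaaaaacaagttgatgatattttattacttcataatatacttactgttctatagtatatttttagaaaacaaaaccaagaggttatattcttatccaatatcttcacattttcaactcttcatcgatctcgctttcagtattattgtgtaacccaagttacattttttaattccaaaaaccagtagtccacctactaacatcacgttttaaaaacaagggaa
SUR1: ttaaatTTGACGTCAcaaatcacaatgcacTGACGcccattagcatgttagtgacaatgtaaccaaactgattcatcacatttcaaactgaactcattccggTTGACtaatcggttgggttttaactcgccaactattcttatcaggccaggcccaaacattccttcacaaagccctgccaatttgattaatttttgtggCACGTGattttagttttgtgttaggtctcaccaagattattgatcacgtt
The MYB34 and CYP83B1 windows hold none of these letters, MYB51 holds the W-box core at 2 places, and SUR1 holds 2 W-box cores, 1 G-box and 3 TGA elements, where the first W-box core overlaps a TGA element. Of all 8 members, 3 hold a W-box core, against 44.9% of 27437 protein-coding genes. The G-box and the TGA element occur in 1 member, SUR1, against 6.49% and 18.6% of those genes. A match is a run of letters and was not tied to any factor.

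MYB34, the main root regulator of the pathway, fell in roots between 1 and 2 h and stayed low. Its root level was 134, 121 and 130 CPM in the 3 water replicates, 146, 96.7 and 109 after 1 h of SHAM, 31.6, 38.9 and 21.5 after 2 h, and 36.6, 29.6 and 32.7 after 3 h. All 6 root libraries at 2 and 3 h lay below all 6 of water and SHAM 1 h. The mean went from 128 ± 6.98 in water to 30.7 ± 8.73 at 2 h, a log2 fold change of -1.75 ± 0.27 (edgeR adjusted p = 0.000627), and to 33.0 ± 3.54 at 3 h, -1.60 ± 0.27 (adjusted p = 0.000911). In bulk tissue, fewer cells of a type and less RNA per cell cannot be told apart. Against SHAM 1 h the 2 h level was lower by a log2 fold change of -1.85 ± 0.27 (adjusted p = 0.00641), and MYB34 and SUR1 were the 2 of 6 members called in that step, both lower (4.10% of all genes, 1.81% lower). Without both root libraries that resembled the other time, the step from 1 to 2 h was -1.61 ± 0.27 (adjusted p = 0.0188) and the values against water were -1.48 ± 0.27 at 2 h (adjusted p = 0.00304) and -1.62 ± 0.27 at 3 h (adjusted p = 0.00131). The step from 1 to 2 h was not called with only those groups in the fit (adjusted p = 0.0659). From 2 to 3 h the change was 0.14 ± 0.27, and -0.14 ± 0.29 without the pair, called in neither case.

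In shoots MYB34 stood at 28.2, 23.9 and 22.6 CPM in water, 26.0, 7.32 and 18.7 at 1 h, 9.38, 9.37 and 8.00 at 2 h, and 15.6, 13.6 and 17.8 at 3 h. The 2 h and 3 h libraries lay below water without overlap, while those of 1 h overlapped it. Only the 2 h change was called, -1.40 ± 0.36 (edgeR adjusted p = 0.0172), and the 3 h value was -0.66 ± 0.35 (adjusted p = 0.273). The 2 h call ended without SHAM 2 h replicate 1 or 2 (adjusted p = 0.0679 and 0.0646) and without water replicate 1 or 2 (0.0615 and 0.0527).

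**Figure D2:**
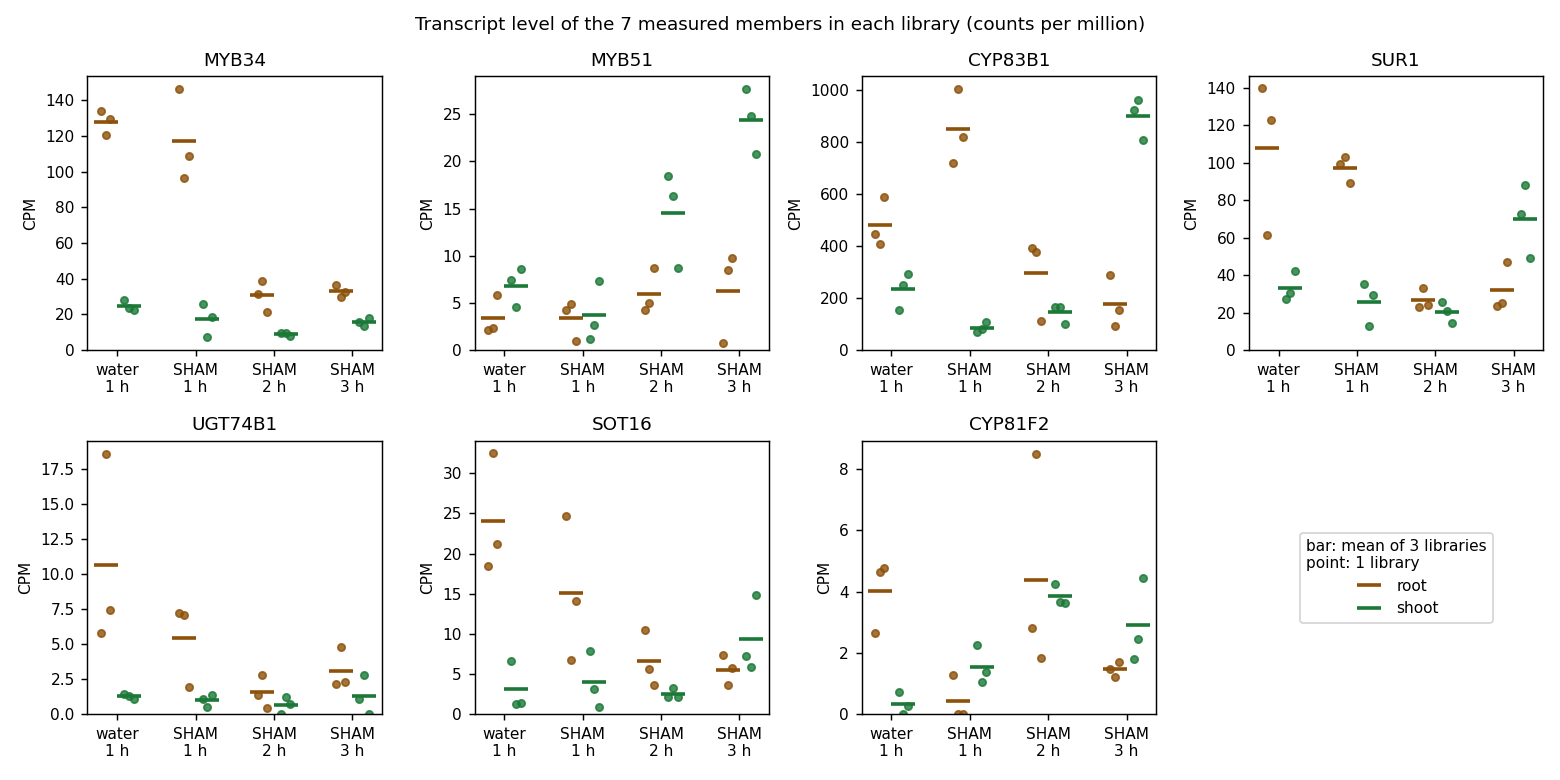
Level in CPM (vertical axis) of each of the 7 measured members in the 24 libraries, by treatment (horizontal axis), with roots in brown and shoots in green. Points are single libraries and bars are means of 3. MYB34 and SUR1 are high in water and SHAM 1 h roots and low in later ones, and CYP83B1 and MYB51 are highest among shoots at 3 h.

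MYB51, the regulator best known from shoots and from responses to microbes, rose in shoots. Shoot levels were 7.42, 4.51 and 8.56 CPM in water, 1.13, 2.61 and 7.28 at 1 h, 18.5, 16.3 and 8.72 at 2 h, and 27.7, 24.8 and 20.8 at 3 h. Every 3 h library lay above every other shoot library, and the 2 h libraries lay above water by a small margin in replicate 3. The mean of 24.4 ± 3.47 at 3 h against 6.83 ± 2.09 in water gave a log2 fold change of 1.83 ± 0.39 (edgeR adjusted p = 0.0085), and at 2 h it was 1.15 ± 0.39 (adjusted p = 0.0624). From 1 to 2 h MYB51 rose by 1.65 ± 0.43 (adjusted p = 0.0381), the 1 of 5 members called in that step (5.90% of all genes, 2.71% higher). That step was lost without SHAM 1 h replicate 1 or 2 (adjusted p = 0.0867 and 0.169) or SHAM 2 h replicate 1 or 2 (0.143 and 0.0955), and the 3 h call in a fit of all 24 libraries (0.0522). The 2 h value passed without SHAM 2 h replicate 3 (1.33 ± 0.40, adjusted p = 0.0454).

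Root counts of MYB51 were low, 1 to 34 per library. The levels were 2.11, 2.32 and 5.84 CPM in water, 4.25, 4.93 and 0.970 at 1 h, 4.22, 4.95 and 8.70 at 2 h, and 0.733, 8.45 and 9.75 at 3 h. All 3 SHAM groups overlapped water, and the lowest value at 3 h was that of replicate 1, which resembled the 2 h group. The log2 fold changes of 1.09 ± 0.74 at 2 h and 1.24 ± 0.72 at 3 h were not called (adjusted p = 0.364 and 0.273), and without that pair of libraries they were 0.73 ± 0.71 (adjusted p = 0.56) and 1.75 ± 0.61 (adjusted p = 0.0703).

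CYP83B1, the enzyme that commits indole-3-acetaldoxime to glucosinolates, fell in shoots at 1 h and was far above water at 3 h. Shoot levels were 155, 251 and 292 CPM in water, 68.9, 80.0 and 108 at 1 h, 166, 166 and 101 at 2 h, and 923, 960 and 808 at 3 h. The 1 h libraries all lay below water and the 3 h libraries all far above it. The changes were -1.19 ± 0.24 at 1 h (edgeR adjusted p = 0.00311), -0.63 ± 0.23 at 2 h (adjusted p = 0.0801) and 1.96 ± 0.24 at 3 h (adjusted p = 0.000112). Between 2 and 3 h CYP83B1 rose by 2.59 ± 0.24 (adjusted p = 8.01e-05), the larger of the 2 calls among 5 members in that step, both higher (8.94% of all genes, 4.66% higher). Its 2 h value passed with DESeq2 (adjusted p = 0.0455) and without shoot water replicate 1 (0.0287).

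In roots CYP83B1 ran the other way in its means. The levels were 447, 407 and 586 CPM in water, 720, 1003 and 819 at 1 h, 394, 377 and 112 at 2 h, and 289, 91.1 and 155 at 3 h. All 1 h libraries lay above water and all 2 h and 3 h libraries below it, with the lowest 2 h value in replicate 3 and the highest 3 h value in replicate 1, the libraries that resembled the other time. The changes of 1.06 ± 0.44 at 1 h, -0.39 ± 0.43 at 2 h and -1.07 ± 0.44 at 3 h were not called (edgeR adjusted p = 0.111, 0.607 and 0.113). With both of those libraries left out, the 2 h value was 0.07 ± 0.26 (adjusted p = 0.902), the 3 h value was -1.55 ± 0.28 (adjusted p = 0.00228), and the step from 2 to 3 h was -1.61 ± 0.30 (adjusted p = 0.02). With all libraries that step called 0 of 6 members (0% of 10642 genes), with 0 members and 176 genes at an unadjusted p under 0.05 and 0 genes called by DESeq2. The 1 h value passed with only its groups in the fit (1.04 ± 0.23, adjusted p = 0.0251), and the 3 h value without SHAM 3 h replicate 1 alone (-1.58 ± 0.44, adjusted p = 0.026). The change from 1 to 2 h, -1.45 ± 0.44 (adjusted p = 0.0768), passed with DESeq2 (0.0352) and with all 24 libraries (0.0391), and was -1.02 ± 0.27 (0.0792) without the pair.

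SUR1, the C-S lyase that releases the thiol shared by all glucosinolates, fell in roots and rose in shoots. Root levels were 140, 61.4 and 123 CPM in water, 99.4, 103 and 89.2 at 1 h, 23.2, 33.3 and 24.3 at 2 h, and 23.4, 25.4 and 47.0 at 3 h. The 1 h libraries lay within the range of water, and the 6 later ones all lay below both earlier groups. The changes were -1.68 ± 0.34 at 2 h (edgeR adjusted p = 0.00414), -1.39 ± 0.33 at 3 h (adjusted p = 0.0104) and -1.77 ± 0.34 from 1 to 2 h (adjusted p = 0.0134). Without the pair of root libraries that resembled the other time they were -1.56 ± 0.39 (adjusted p = 0.0183), -1.16 ± 0.37 (0.04999, barely under the threshold) and -1.67 ± 0.39 (0.0485). The 3 h call ended without SHAM 3 h replicate 2 (adjusted p = 0.0634) and without water replicate 1 or 3 (0.0684 and 0.0538). The step from 1 to 2 h ended without SHAM 2 h replicate 3 (0.0792) and with only its groups in the fit (0.0659).

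Shoot levels of SUR1 were 27.4, 30.3 and 42.2 CPM in water, 35.0, 13.1 and 29.1 at 1 h, 25.4, 20.8 and 14.5 at 2 h, and 72.8, 87.8 and 48.9 at 3 h. The 3 h libraries all lay above the other 9, and the 2 h libraries all below water. The 3 h rise was 1.07 ± 0.30 (edgeR adjusted p = 0.0398), and that from 2 to 3 h was 1.71 ± 0.31 (adjusted p = 0.00452). The first of these was close to the threshold. It ended without SHAM 3 h replicate 1 or 2 (adjusted p = 0.133 and 0.152), without water replicate 1, 2 or 3 (0.164, 0.126 and 0.0606), and under several other settings.

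UGT74B1 and SOT16, the glucosyl- and sulfotransferases that finish the core, were measured at low levels, and each was called lower in SHAM roots at 1 time. UGT74B1 stood at 5.82, 18.5 and 7.43 CPM in water roots, 7.22, 7.08 and 1.94 at 1 h, 1.41, 2.83 and 0.458 at 2 h, and 2.20, 4.83 and 2.30 at 3 h. The 2 h and 3 h libraries lay below water without overlap. The change was -2.42 ± 0.76 at 2 h (edgeR adjusted p = 0.0469) and -1.35 ± 0.66 at 3 h (adjusted p = 0.185). The 2 h call rests on 7 counts over the group and ended in each fit without one water replicate (1, 2 or 3: adjusted p = 0.0563, 0.178 and 0.0777) or one SHAM 2 h replicate (1, 2 or 3: 0.128, 0.0523 and 0.174), and without the pair of libraries (-1.82 ± 0.83, adjusted p = 0.184). Without that pair the 3 h value was -1.13 ± 0.71 (adjusted p = 0.303). The 2 h call also ended without root SHAM 1 h replicate 1, the root library of high shoot marker share (-2.34 ± 0.77, edgeR adjusted p = 0.0588). In shoots UGT74B1 had 0 to 8 counts per library and was not tested. Pooled over 3 libraries it had 11 counts at 3 h and 8 in water, a ratio of 1.29 (95% interval 0.472 to 3.69, for counting error only).

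SOT16 stood at 18.5, 32.5 and 21.2 CPM in water roots, 24.6, 6.78 and 14.1 at 1 h, 10.5, 5.66 and 3.66 at 2 h, and 7.33, 3.62 and 5.74 at 3 h. The 2 h and 3 h libraries again lay below water without overlap. The change was -1.74 ± 0.51 at 3 h (edgeR adjusted p = 0.0322) and -1.54 ± 0.52 at 2 h (adjusted p = 0.0607). The 3 h call ended without SHAM 3 h replicate 2 or 3 (adjusted p = 0.123 and 0.0992) and without water replicate 1, 2 or 3 (0.0538, 0.113 and 0.0693), while without the mismatched pair it was -1.86 ± 0.56 (0.0385). The 2 h value passed with DESeq2 (0.0431) and without SHAM 2 h replicate 1 (-2.01 ± 0.58, adjusted p = 0.0465), but was -1.15 ± 0.56 (adjusted p = 0.212) without the mismatched pair. In shoots SOT16 had 2 to 20 counts per library, at 6.67, 1.29 and 1.38 CPM in water and 7.28, 5.94 and 14.8 at 3 h. Those groups overlap, and the change of 1.70 ± 0.75 was not called (adjusted p = 0.192). SOT16 and SOT18, a sulfotransferase of the aliphatic branch, point at each other on chromosome 1 with 151 bases between their annotated 3′ ends in TAIR10.1. Whether counting used the strand is not given in the sources used here, so reads of this pair may not be fully separated.

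CYP81F2, which hydroxylates the indole ring and is known for its part in defence against fungi and insects, had 0 to 14 counts per library and did not pass the filter. Its shoot counts were 1, 0 and 1 in water, 2, 2 and 3 at 1 h, 14, 9 and 5 at 2 h, and 5, 7 and 6 at 3 h. Each 2 h and 3 h shoot library had more counts than any water shoot. Pooled over 3 libraries and scaled to totals, CYP81F2 was 12.8 times water at 2 h (28 against 2 counts, 95% interval 3.23 to 111) and 8.44 times at 3 h (18 counts, 2.02 to 75.0). With no filter, edgeR gave log2 fold changes of 3.58 ± 0.84 at 2 h (adjusted p = 0.0058) and 2.98 ± 0.88 at 3 h (adjusted p = 0.0479). Root counts were 5, 4 and 9 in water, 3, 0 and 0 at 1 h, 4, 12 and 4 at 2 h, and 2, 2 and 6 at 3 h. At 1 h the water roots were 9.92 times SHAM (18 against 3 counts, 2.89 to 52.6), and with no filter the change was -2.78 ± 0.92 (adjusted p = 0.0635).

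Its 3 relatives CYP81F1, CYP81F3 and CYP81F4, which also hydroxylate the indole ring, rose in roots within 1 h. They lie close together on chromosome 4, with 1 coding gene between CYP81F3 and CYP81F4 and 1 between CYP81F4 and CYP81F1. CYP81F1 went from 41.8, 26.7 and 35.0 CPM in water to 129, 159 and 169 at 1 h, 96.3, 83.5 and 222 at 2 h, and 92.3, 247 and 285 at 3 h. All 9 SHAM libraries lay above water, with changes of 2.37 ± 0.44, 2.28 ± 0.44 and 2.93 ± 0.45 (edgeR adjusted p = 0.00349, 0.00319 and 0.000501). CYP81F3 rose at 1 h, from 29.5 ± 5.61 to 113 ± 79.1 CPM (2.20 ± 0.42, adjusted p = 0.00412), with 205 CPM in replicate 2 against 73.9 and 62.0 in the others, and was not called against water later. CYP81F4 rose by 1.33 ± 0.24 at 1 h (adjusted p = 0.00308). These root calls kept their side of the threshold in every alternative run. Its root value of 0.76 ± 0.24 at 3 h (adjusted p = 0.044) did not, ending without any 1 of the 6 libraries compared (0.063 to 0.144) and without the pair that resembled the other time (0.0536). In shoots CYP81F4 rose at 1 h (1.60 ± 0.37, adjusted p = 0.00802). At 3 h CYP81F4 (1.38 ± 0.36, adjusted p = 0.027) and CYP81F1 (1.71 ± 0.46, adjusted p = 0.0333) were called too. The first ended without any of the water replicates or SHAM 3 h replicate 1 or 2 (0.0522 to 0.141), the second without any SHAM 3 h replicate or water replicate 1 or 2 (0.0668 to 0.122). Near-identical copies could share 3′ reads, which was not tested.

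**Figure D3:**
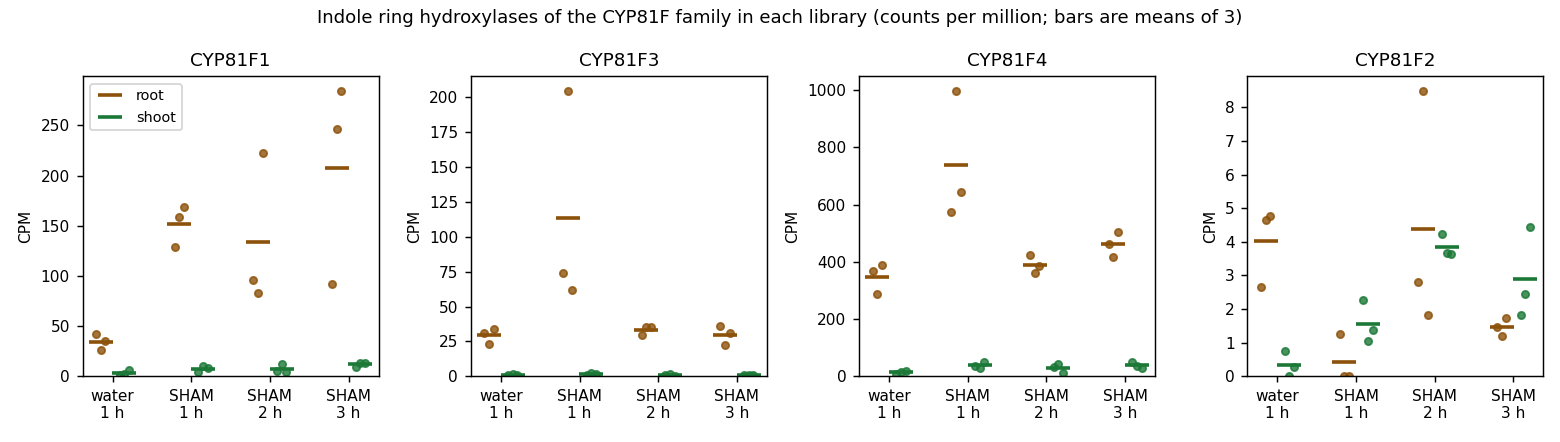
Level in CPM (vertical axis) of CYP81F1, CYP81F3, CYP81F4 and CYP81F2 in each library by treatment (horizontal axis), with roots in brown, shoots in green, points for single libraries and bars for means of 3. In roots CYP81F1, CYP81F3 and CYP81F4 are above water at 1 h, where CYP81F2 is at 0 in 2 of 3 libraries.

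Before SHAM, the organs already differed. In water, 3 of the 6 tested members were lower in shoots than in roots and 1 was higher (50.2% of all genes were called, 25.1% lower and 25.1% higher). MYB34 was at 24.9 ± 2.91 CPM in shoots and 128 ± 6.98 in roots, a log2 fold change of -1.30 ± 0.29 (edgeR adjusted p = 0.000528). SOT16 was lower by -2.02 ± 0.64 (adjusted p = 0.0109) and UGT74B1 by -1.89 ± 0.77 (adjusted p = 0.0439). MYB51 was higher by 1.99 ± 0.64 (adjusted p = 0.0122), although its CPM values overlap, at 4.51 to 8.56 in shoots and 2.11 to 5.84 in roots. CYP83B1 had 233 ± 70.3 CPM in shoots and 480 ± 93.9 in roots, yet its fold change after TMM was 0.03 ± 0.39 (adjusted p = 0.957), and with library size alone it was -1.05 ± 0.39 (0.021). These organ values thus depend on the scaling. With library size alone MYB51 was at 0.94 (0.205) and SUR1 at -1.70 ± 0.36 (0.000258), against -0.63 ± 0.33 after TMM (0.122). SUR1 also passed with DESeq2 (0.033), median-ratio factors (0.0356) and without root water replicate 2 (0.0182). The MYB51 call ended without root water replicate 1 or shoot water replicate 3 (0.0793 and 0.0649), that of SOT16 without shoot water replicate 2 or 3 (0.054 and 0.0933), and that of UGT74B1 without root water replicate 2 or any shoot water replicate (0.0736 to 0.168).

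The difference of the SHAM effect between the organs was tested in one fit of 24 libraries, as the shoot change minus the root change. This fit, used for the water comparison too, treated all libraries as independent, although roots and shoots were parted from whole seedlings. A shared pool of seedlings behind a root and a shoot library was not modelled. At 1 h CYP83B1 was the 1 of 6 members called (5.93% of all genes, 3.96% lower), at -2.38 ± 0.56 (edgeR adjusted p = 0.015), and it ended without root water replicate 2 (0.0557). At 2 h 0 of 6 were called (3.34%), with 0 at an unadjusted p under 0.05 and 0 with DESeq2. At 3 h 3 of 6 were called, all higher in shoots (1.73%, 0.436% higher). CYP83B1 differed by 2.97 ± 0.57 (adjusted p = 0.00593), SUR1 by 2.41 ± 0.48 (0.00717) and SOT16 by 3.39 ± 0.88 (0.0462). Without the pair of root libraries that resembled the other time these were 3.63 ± 0.42 (3.59e-05), 2.36 ± 0.50 (0.0196) and 3.72 ± 0.95 (0.0547). The SOT16 value lost its call in each of 11 fits with 1 library left out, so it is the least firm of the 3. MYB34 differed by 0.89 ± 0.41 (0.318) and MYB51 by 0.55 ± 0.88 (0.858), and neither was called with or without the pair (0.264 and 0.975 without it).

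**Figure D4:**
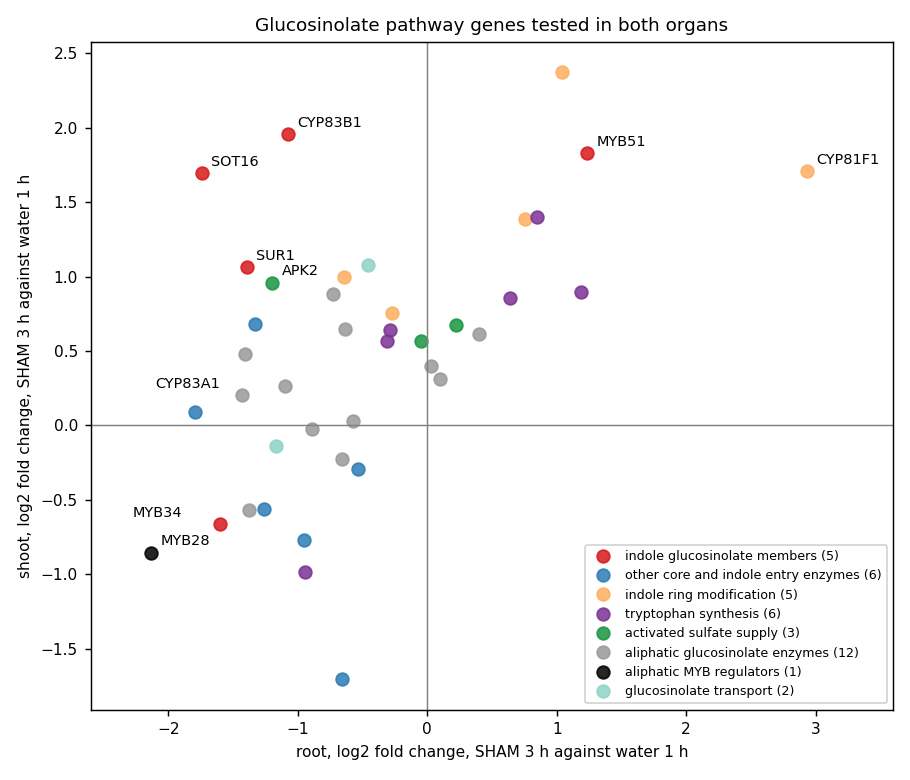
Log2 fold change after 3 h of SHAM in shoots (vertical axis) against roots (horizontal axis) for pathway genes tested in both organs, coloured by list. Of 5 members in red, 3 (CYP83B1, SUR1 and SOT16) lie lower in roots and higher in shoots, MYB51 lies above 0 in both and MYB34 below 0 in both. The root value of CYP83B1 and the shoot value of SOT16 were not called. Also lower in roots and higher in shoots are 6 of 12 aliphatic enzymes, 2 of 3 sulfate genes and 1 of 2 transporters. So are 2 of 5 ring modification genes, 2 of 6 other core enzymes and 2 of 6 tryptophan genes. The share over all genes was not counted.

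The surrounding pathway was read from lists chosen with results of these data known. Of the 6 other core and indole entry enzymes, SOT18 fell in roots at 1, 2 and 3 h (-1.88 ± 0.36, -2.53 ± 0.38 and -1.79 ± 0.36, edgeR adjusted p = 0.00406, 0.00047 and 0.00365) and the other 5 were not called there. CYP79B2, which makes indole-3-acetaldoxime, had root levels of 227, 262 and 299 CPM in water, 514, 734 and 595 at 1 h, 255, 224 and 19.2 at 2 h, and 168, 33.8 and 44.2 at 3 h. Its values too were lowest at 2 h in replicate 3 and highest at 3 h in replicate 1. In shoots CYP79B2 rose from 2 to 3 h by 1.45 ± 0.27 (adjusted p = 0.00499), though not with all 24 libraries in the fit (0.182). Against water at 3 h its shoot log2 fold change was 0.68. Of the 6 listed enzymes, 2 had positive values in that shoot comparison and 4 had negative ones, from -0.29 to -1.71. For tryptophan synthesis, 3 of 6 tested genes rose in shoots at 3 h, TSA1 by 1.40 ± 0.25, ASA1 by 0.89 ± 0.26 and TSB1 by 0.86 ± 0.24 (adjusted p = 0.00258, 0.0457 and 0.0384), where 6.31% of all genes were called higher. A further 2 of 8 rose in roots at 3 h, ASA1 and TSA1, where 16.4% of all genes were called in either direction and 1063 of 10642 were called higher. TSB1 was also called higher in roots at 1 h (0.74 ± 0.22, edgeR adjusted p = 0.0432), close to the threshold. Of the 5 calls at 3 h, that of TSA1 in shoots held in every alternative. The shoot calls of ASA1 and TSB1 ended without SHAM 3 h replicate 1 or 2 or water replicate 1 or 2, that of ASA1 also without SHAM 3 h replicate 3 and that of TSB1 without water replicate 3 (0.0784 to 0.18). The root calls ended without SHAM 3 h replicate 2 or 3 or water replicate 1 or 2, and that of ASA1 without water replicate 3 (0.0757 to 0.154). Activated sulfate is supplied by APK kinases, and APK1 fell in roots at 2 and 3 h (-2.11 ± 0.59 and -2.39 ± 0.60, adjusted p = 0.0286 and 0.014), while APK2 fell in shoots at 2 h (-0.96 ± 0.24, adjusted p = 0.0139) and rose at 3 h (0.96 ± 0.23, adjusted p = 0.0182). The APK1 calls ended without water replicate 2 or SHAM replicate 3 of the time (0.0518 to 0.116), at 2 h also without water replicate 3 or SHAM 2 h replicate 1 (0.08 and 0.111) or the pair that resembled the other time (0.0872), and at 3 h without SHAM 3 h replicate 2 (0.0634). Those of APK2 ended at 2 h without water replicate 1 or SHAM 2 h replicate 2 (0.0698 and 0.0718), and at 3 h without water replicate 2 or 3 or SHAM 3 h replicate 1 (0.0595 to 0.0915).

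The camalexin branch shares the oxime with indole glucosinolates. CYP71A12, of that branch, rose in shoots from 1.63 ± 0.885 CPM in water to 50.1 ± 15.4 at 3 h (5.08 ± 0.50, edgeR adjusted p = 2.03e-05). In roots it was at 5.62, 5.66 and 82.0 CPM at 2 h and 5.86, 113 and 90.7 at 3 h, again split by those 2 libraries. Of the ring methyltransferases, IGMT2 rose in shoots at 2 and 3 h (2.34 ± 0.46 and 2.37 ± 0.46, adjusted p = 0.00372 and 0.00494). Of 15 tested enzymes of the aliphatic branch, 6, 7 and 6 were called lower in roots at 1, 2 and 3 h and 0 higher, where 5.22, 5.40 and 6.40% of all genes were called lower. The rest of the 15 were not called. Its regulator MYB28 fell from 83.5, 45.2 and 51.0 CPM in water roots to 10.5, 10.6 and 11.0 at 2 h (-2.15 ± 0.30, adjusted p = 0.000314) and 11.7, 8.45 and 11.8 at 3 h (-2.13 ± 0.30, adjusted p = 0.000259). MYB28 also fell in shoots at 1 h (-1.77 ± 0.31) and 2 h (-1.99 ± 0.30, adjusted p = 0.00131 and 0.000459). These calls of CYP71A12 in shoots at 3 h, IGMT2 and MYB28 held in every alternative. Of 4 tested glucosinolate transporters, 0, 2 and 1 were called in roots at 1, 2 and 3 h, all lower, and of 4 tested MYC partners and other regulators 0, 1 and 0, also lower, against the same shares of all genes. Such small counts are given without a reading.

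Likeness over the 12 libraries of an organ was taken as Pearson's r of log2 CPM after TMM scaling, with a prior count of 2. It was taken among 7093 genes in roots and 5490 in shoots with a mean of at least 10 CPM. The values are a description in which groups of libraries share their treatment. In roots CYP83B1 was most like CYP79B2 (r = 0.979), SUR1 like RBL1 (0.970) and MYB34 like AT3G62940 (0.981). In shoots CYP83B1 was most like ADC2 (0.965) and MYB51 like DTX1 (0.980). Among the members, MYB34 and SUR1 had r = 0.903 in roots, and MYB34 and CYP83B1 had 0.767 in roots but 0.0224 in shoots, where CYP83B1 and MYB51 had 0.742. The highest member pair in shoots was CYP83B1 with SUR1 (0.806). There SUR1 had 0.407 with MYB51 and 0.4 with MYB34, and SOT16 had 0.148 and 0.186.

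The authors' deposited table, made with DESeq2 per the submitters' processing notes, holds log2 fold changes of the control over SHAM. With the sign turned to SHAM over water, CYP81F2 was at -3.14 in roots at 1 h (DESeq2 adjusted p = 0.0392). In shoots at 2 h it was at 3.72 (adjusted p = 0.0242). The authors' counts below are over all measured members and so include CYP81F2, which was not tested here. At an adjusted p under 0.05, the number called matched that here in 5 of 11 comparisons: 3 in roots at 2 h, 3 in roots at 3 h, 1 in shoots at 1 h, 0 in roots from 2 to 3 h and 2 in shoots from 2 to 3 h. In the authors' deposited table more were called in roots at 1 h (1 against 0 here), in shoots at 2 h (2 against 1), in roots from 1 to 2 h (4 against 2) and between organs in water (6 against 4). CYP81F2 was among the authors' calls in each of these comparisons (DESeq2 adjusted p = 0.0392, 0.0242, 0.0272 and 0.0447), so these counts compare unlike sets of genes. The authors' calls also held CYP83B1 in roots from 1 to 2 h (0.0198) and SUR1 between organs in water (0.0431). Both genes were tested here and not called in those comparisons. Fewer were called in the authors' deposited table in shoots at 3 h (2 against 3) and from 1 to 2 h (0 against 1).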

How the data were processed

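RNA from roots and shoots was measured in 24 MARS-seq libraries, which count the 3′ ends of transcripts. Per the submitters' processing notes, bcl2fastq, cutadapt, STAR 2.4.2a, HTSeq and DESeq2 were used. The genome build, strand use and handling of molecular identifiers are not given in the sources used here. The authors deposited raw counts per gene and library, and log2 fold changes with adjusted p-values, both per the file headers. A further 48 columns of per-sample values were not used.

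From the counts, edgeR 4.0.16 in R 4.3.3 gave quasi-likelihood tests after TMM scaling and a filter (minimum count 10, minimum total 15), with Benjamini-Hochberg adjustment over all genes. One fit held the 12 libraries of each organ (10642 genes in roots, 8570 in shoots), and 24 libraries served organ comparisons (11704 genes). The SE is the log2 fold change divided by the square root of the F statistic. Fitted values rest on 3 replicates a group, and p-values measure the spread between pooled replicates. Library totals of 862731 to 3622300 counts mean that 1 count is about 1 CPM in the smallest library, which limits CYP81F2, UGT74B1, SOT16 and MYB51. Pooled ratios have exact 95% intervals that cover counting error only. The code was tested on simulated data.

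The members, the other lists and the tests were chosen with earlier results of these data known. All 8 members are named, and of each other list up to 3 called genes per comparison with the largest change, besides CYP79B2 in roots, CYP71A12 in roots at 2 h and the CYP81F family, named after their values were seen. Alternatives covered other scalings (median-ratio factors, library size alone), no filter, DESeq2 1.42.0, a replicate block, other sets of libraries, a threshold of 0.01 and leaving out each library. A further 2, chosen after seeing the data, left out root SHAM 1 h replicate 1, or root SHAM 2 h replicate 3 with SHAM 3 h replicate 1. Promoters were read from RefSeq TAIR10.1, where 94 of 94 listed loci and 16082 of 16183 table loci matched.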

Additional observations from a re-analysis of the deposited data

Results flagged for a closer look

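These results were picked out because the effect of SHAM differed between shoots and roots in an interaction test (edgeR, 24 libraries, adjusted p under 0.05), each value being the shoot log2 fold change minus the root one. Of the members, CYP83B1 differed by -2.38 at 1 h (root 1.06 ± 0.44, shoot -1.19 ± 0.24) and by 2.97 at 3 h (root -1.07 ± 0.44, shoot 1.96 ± 0.24), so its sign turned between these times. SUR1 differed by 2.41 at 3 h (root -1.39 ± 0.33, shoot 1.07 ± 0.30) and SOT16 by 3.39 (root -1.74 ± 0.51, shoot 1.70 ± 0.75).

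Around them, the tryptophan genes ASA1 and TSB1 differed by -2.12 and -1.51 at 1 h, the sulfate gene APS3 by -1.63 and the transporter GTR2 by -1.66. The aliphatic enzymes CYP83A1 and IPMI2 differed by 2.00 and 2.56 at 1 h and by 1.48 and 2.58 at 2 h, and GSTU20 by 1.74 at 2 h. CYP83A1 and IPMI1 differed by 1.59 and 1.84 at 3 h. The methyltransferase IGMT3 differed by 2.45 at 2 h and the sulfate kinase APK2 by 2.10 at 3 h. Of these 13 values, 3 kept their call under every other scaling, filter, test and choice of libraries run, those of IPMI2 and CYP83A1 at 1 h and IGMT3 at 2 h, and the other 10 lost it under at least 1. With 3 libraries a group, no single-gene value was tested for outlying samples within its group.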

How the results depend on the processing

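Of 24 called member results, 10 kept their call under every alternative run, and 0 reversed. Those 10 were MYB34 in roots at 2 and 3 h and between organs in water, SUR1 in roots at 2 h, from 2 to 3 h in shoots and between organs at 3 h, and CYP83B1 in shoots at 1 h, 3 h and from 2 to 3 h and between organs at 3 h. One result that was not called reversed: CYP83B1 between organs in water, -1.05 with library size alone. That scaling moved the median gene to -0.21, -0.41 and -0.43 in roots at 1, 2 and 3 h and to -1.19 between organs (TMM 0.04, -0.08, -0.07 and -0.12), and the share of calls that were higher in roots from 57.3, 61.4 and 61.0% to 31.4, 30.7 and 29.5%, and between organs from 50.1 to 20.8%.

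Member counts that moved by more than 1.5 times were these. With no filter, 2 were called in shoots at 2 h and 2 between organs at 1 h, and DESeq2 called 2 in shoots at 2 h. With only the groups compared, counts were 1 in roots at 1 h, 2 in shoots at 2 h, 0 in roots from 1 to 2 h and 0 in shoots from 1 to 2 h. With all 24 libraries they were 1 in shoots at 3 h and 0 in shoots from 1 to 2 h. At a threshold of 0.01 they were 1 in roots at 3 h, 1 in roots from 1 to 2 h, 0 in shoots at 2 h, 0 in shoots from 1 to 2 h, 1 between organs in water and 0 between organs at 1 h. Without the pair of root libraries that resembled the other time, 1 was called in roots from 2 to 3 h, and by less than that margin counts went from 3 to 2 in roots at 2 h, 3 to 4 in roots at 3 h and 3 to 2 between organs at 3 h. Leaving out 1 library gave 1 to 4 in roots at 3 h, 1 to 2 in roots from 1 to 2 h, 0 to 2 in shoots at 2 h, 0 to 1 in shoots from 1 to 2 h, 1 to 4 between organs in water and 0 to 1 between organs at 1 h. Where a group kept fewer libraries the fit had fewer samples. Elsewhere the cause was not tested.

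Deviations of same-numbered libraries from their group means had a median r of -0.03 in roots (-0.469 to 0.48) and -0.17 in shoots (-0.619 to 0.537). Differently numbered libraries had medians of 0.01 and 0.08. These pairs span treatments within an organ and cannot show whether a root and a shoot library came from the same seedlings. That pairing was not tested. With the replicate block, 0 members were called in shoots from 1 to 2 h, and 282 and 307 genes in all in roots and shoots for that step, against 436 and 506. Over all genes, that step gave 745 and 779 calls with DESeq2, 0 and 139 with only the groups compared, and 217 in roots without the pair of libraries, which gave 230 from 2 to 3 h against 0. Between organs, only the groups compared gave 333, 619 and 306 at 1, 2 and 3 h, and at 3 h DESeq2 gave 389 and no filter 125, against 694, 391 and 202; roots at 1 h gave 822 against 1302 with only the groups compared, and shoots from 2 to 3 h 507 against 766 with all 24 libraries. Leaving out 1 library gave 510 to 1533, 822 to 1136 and 1001 to 1718 in roots at 1, 2 and 3 h, 58 to 369 in roots from 1 to 2 h, 898 to 1449, 761 to 1201 and 417 to 729 in shoots at 1, 2 and 3 h, 87 to 1149 and 294 to 645 in shoots from 1 to 2 h and from 2 to 3 h, and 308 to 1127, 195 to 341 and 79 to 150 between organs at 1, 2 and 3 h. The shares of all genes printed beside member counts move with these. Counts also moved over 1.5 times at the stricter threshold.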
